A study of Mus musculus with 9 samples.

Results

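The genes described here are 8 enzymes of heme synthesis, Alas1, Alas2, Alad, Uros, Urod, Cpox, Ppox and Fech, taken by symbol from the 54532 genes listed. The 9 RNA-seq samples came from sorted mouse spleen cells, in 3 groups of 3. N-mDCs were mature conventional dendritic cells (cDCs) of normal mice, T-mDCs were mature cDCs of mice with T-cell acute lymphoblastic leukemia (T-ALL), and T-DCs were CD11c+ cells of leukemic mice that carried little MHCII on their surface. Per the study's methods, female mice of 6 to 8 weeks on the C57BL/6J background were used, and the leukemia came from bone marrow c-kit+ cells of C57BL/6J mice that carried a retrovirus with ICN1, the intracellular domain of Notch1, together with GFP. The GFP+ leukemia cells had been passed on to C57BL/6J or C57B6.SJL recipients that were not irradiated, and the labelled groups were sorted on day 15. The recipient strain of each sample, the number of mice behind it and whether mice were pooled are not given in the sources used here, so p-values measure the spread between these samples, which may be technical. Red blood cells were lysed with ammonium chloride and CD11c+ cells were enriched on microbeads before the T-DCs were sorted.

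Heme is made from glycine and succinyl-CoA in a path that starts in the mitochondrion, passes through the cytosol and ends in the mitochondrion, where iron is put into the porphyrin ring. The first step is made by either of a pair of enzymes from separate genes, Alas1 in nearly all cells and Alas2 in developing red cells, which need heme for hemoglobin. Every nucleated cell needs some heme for its cytochromes and catalase, so low levels of the other enzymes are found widely, while erythroblasts raise the whole path. The enzyme between Alad and Uros was not among the genes chosen and is not analysed here.

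FPKM values (reads per kilobase of gene, divided by a size set for each library) corresponded to whole reads in all libraries, with 15360815 to 18440913 reads on genes. T-DC samples 2 and 3 stood apart from the other samples in red cell RNA. The 4 hemoglobin genes Hba-a1, Hba-a2, Hbb-bs and Hbb-bt took 3.82% and 3.005% of reads in these samples, 0.405% in N-mDC sample 2, and between 0.00111% and 0.0422% in the other 6 samples. Of 21 listed erythroid marker genes, 20 passed the filter on low values. All 20 were highest in T-DC samples 2 and 3, beside 20.5% of all tested genes. Some of them, such as Trim58 and Ank1, reached 1 FPKM only in T-DCs, so this count was partly fixed by the filter. The summed FPKM of the 21 markers was 652, 61251 and 45136 in T-DC samples 1 to 3, 111 to 5385 in N-mDCs and 27.8 to 202 in T-mDCs. Among them, Slc4a1, the anion exchanger of the red cell membrane, was at 21.3, 1878 and 1304 FPKM in T-DCs. Of 10 neutrophil markers 9, all but Ly6g, were also highest in T-DC samples 2 and 3. The summed FPKM of the 10 was 9.05, 4404 and 1544 in T-DCs, 56.7 to 665 in N-mDCs and 3.78 to 15.9 in T-mDCs. Elane, a granule protease, and Ly6g, a surface protein, had 0 reads in T-DC sample 1, N-mDC sample 1 and T-mDC samples 1 and 3. None of 8 T cell, 5 B cell, 4 NK cell and 3 plasmacytoid DC markers was highest in T-DC samples 2 and 3. The part of red cell and neutrophil RNA in the levels of the enzymes below was not tested, other than by the alternatives given beside the calls. The 10 dendritic cell markers were detected in every sample. In T-DCs 7 of them were called lower against N-mDCs and 7 against T-mDCs, beside 10.3% and 8.79% of all tested genes. The summed FPKM of the 10 markers was 715, 339.5 and 189.5 in T-DC samples 1 to 3 and 733 to 843 in the other groups. Sirpa, at 404, 177 and 100 FPKM in T-DCs, was the largest part of this sum in T-DC sample 1. It was at 195 to 244 FPKM in N-mDCs and 124 to 230 FPKM in T-mDCs. No other marker of the list was above its N-mDC mean in T-DC sample 1. Flt3, a growth factor receptor of DCs, was at 78.8, 44.4 and 54.3 FPKM in the N-mDCs, 15.4, 6.11 and 4.48 FPKM in T-DCs and 62.9, 86.6 and 89.1 FPKM in T-mDCs. Itgax, which encodes CD11c, was at 152, 90.4 and 43.0 FPKM in T-DCs and 158 to 230 FPKM in the other groups. Zbtb46, a transcription factor of cDCs, was at 1.84, 2.84 and 3.42 FPKM in T-DCs, 11.7 to 16.0 FPKM in N-mDCs and 10.7 to 23.5 FPKM in T-mDCs. In these bulk samples, more cells of a type and more RNA per cell cannot be told apart.

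All 8 enzymes were detected in every sample, and 7 of them were highest in T-DC samples 2 and 3. The exception was Alas1. Together the enzymes took 0.681% and 0.545% of reads in these 2 samples, and between 0.0183% and 0.0359% in the other 7. Over all 12746 tested genes, 20.5% were highest in these 2 samples. In the plot of each enzyme by group, T-DC sample 1 lies at 0.695 (Alad) to 2.23 (Cpox) times the N-mDC mean for the enzymes after the first step, and the other 2 T-DC samples lie far above.

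**Figure D1:**
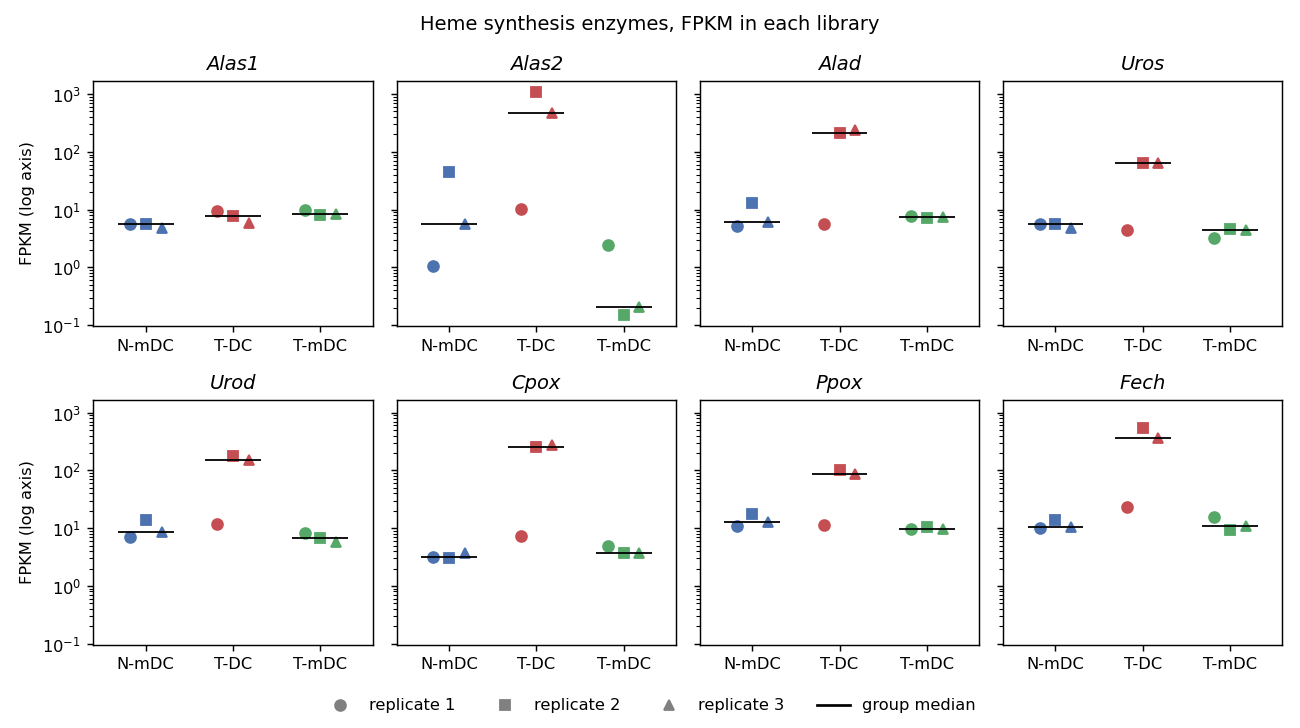
FPKM (log axis) of the 8 enzymes in the order of the pathway, with 1 point per library and a bar at the group median. T-DC samples 2 and 3 lie at least 5.01 times above the highest other library for every enzyme except Alas1.

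Alas1 (chromosome 9, 106233455 to 106248654, minus strand), the general form of the enzyme that joins glycine and succinyl-CoA, was at 5.70, 5.62 and 4.78 FPKM in the N-mDCs, 9.37, 7.75 and 5.97 FPKM in T-DCs and 9.96, 8.23 and 8.46 FPKM in T-mDCs. Every T-DC and every T-mDC sample was above every N-mDC sample, and T-DCs and T-mDCs overlapped. The highest value was only 2.08 times the lowest over the 9 samples. The log2 difference from N-mDCs was 0.43 for T-DCs (standard error 0.19, adjusted p = 0.134, limma with Benjamini-Hochberg adjustment over all tested genes) and 0.63 for T-mDCs (standard error 0.19, adjusted p = 0.131), and neither passed the threshold of 0.05. Between T-DCs and T-mDCs it was -0.20 (95% confidence interval -0.62 to 0.22, adjusted p = 0.504).

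Alas2 (chromosome X, 150547375 to 150570638, plus strand), the erythroid form of the same enzyme, was at 1.06, 45.5 and 5.55 FPKM in the N-mDCs, 10.2, 1079.6 and 478 FPKM in T-DCs and 2.40, 0.151 and 0.204 FPKM in T-mDCs. T-DCs overlapped with N-mDCs, since N-mDC sample 2 was above T-DC sample 1, and lay above all T-mDCs. Apex2 spans the whole gene on the opposite strand and was between 0.688 and 2.86 FPKM, above Alas2 in T-mDC samples 2 and 3, and reads of overlapping genes can be told apart only by strand, which is not given in the sources used here. The levels of Alas2 rested on 40, 1762 and 242 reads in N-mDCs, 441, 40208 and 17433 reads in T-DCs and 109, 7 and 9 reads in T-mDCs. The log2 difference of T-DCs from T-mDCs was 6.75 (limma, standard error 1.68, adjusted p = 0.0319), and that from N-mDCs was 4.39 (standard error 1.68, adjusted p = 0.103). The increase over T-mDCs passed the threshold in 12 of 23 alternatives and had the opposite sign, -0.21, when the mean log2(FPKM + 1) of 8 genes for hemoglobin and the red cell surface was added to the fit (the red cell covariate).

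The 2 forms were compared within each library, since FPKM is per length. Alas2 was at 0.187, 8.10 and 1.16 times the level of Alas1 in N-mDCs, at 1.09, 139 and 80.0 times in T-DCs and at 0.241, 0.0183 and 0.0241 times in T-mDCs. Alas1 was therefore the more abundant form in all T-mDCs and in N-mDC sample 1, and Alas2 in N-mDC sample 2 and T-DC samples 2 and 3. In N-mDC sample 3 and T-DC sample 1 the 2 forms were within 1.16 times of each other. The log2 ratio of Alas2 to Alas1, with 1 added to each FPKM, was 0.43 ± 2.27 (SD, n = 3) in N-mDCs, 4.39 ± 3.72 in T-DCs and -2.56 ± 0.75 in T-mDCs. The ratio in T-DCs was higher than in T-mDCs in all samples, by 6.94 on the log2 scale (two-sided exact permutation test, p = 0.10, adjusted p = 0.30 over 3 pairs of groups), and 0.10 is the smallest p that 3 against 3 samples can give. The difference was 3.96 between T-DCs and N-mDCs (exact permutation p = 0.30, adjusted p = 0.30) and -2.99 between T-mDCs and N-mDCs (exact permutation p = 0.20, adjusted p = 0.30), and in both of these the samples overlapped.

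**Figure D2:**
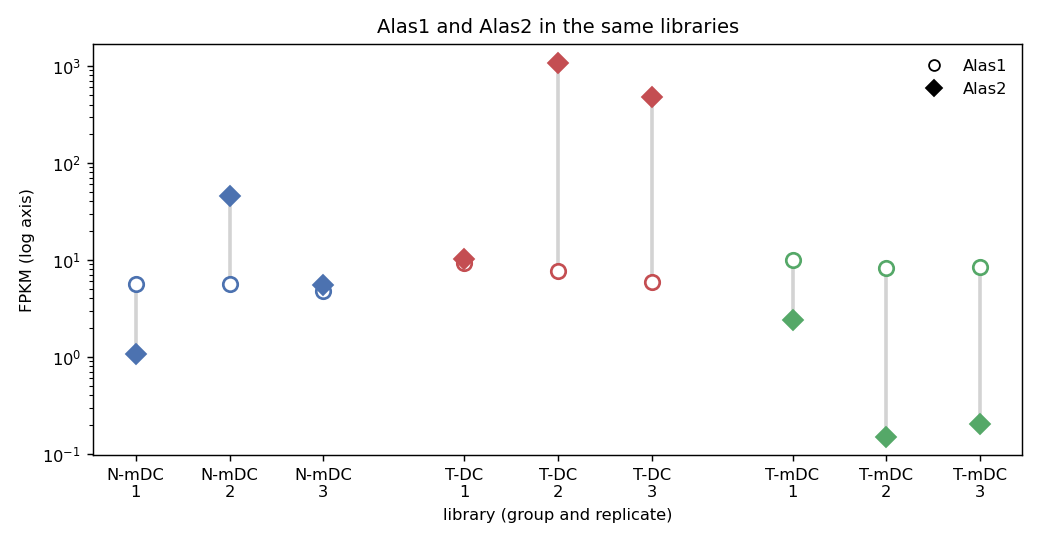
FPKM (log axis) of Alas1 (open circles) and Alas2 (filled diamonds) in each of the 9 libraries, with a grey line joining the 2 forms of a library. Alas1 stays between 4.78 and 9.96 FPKM while Alas2 runs from 0.151 to 1079.6 FPKM.

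Alad (chromosome 4, 62509169 to 62519918, minus strand), the cytosolic enzyme that makes porphobilinogen, was at 5.30, 13.0 and 6.06 FPKM in the N-mDCs, 5.64, 212 and 238 FPKM in T-DCs and 7.87, 7.19 and 7.38 FPKM in T-mDCs. T-DC sample 1 lay within the N-mDCs and below all T-mDCs. The log2 difference of T-DCs was 3.03 from N-mDCs (limma, standard error 1.19, adjusted p = 0.108) and 3.04 from T-mDCs (adjusted p = 0.126). Uros (chromosome 7, 133686243 to 133710072, minus strand), which closes the porphyrin ring, was at 5.63, 5.59 and 4.85 FPKM in the N-mDCs, 4.36, 63.3 and 64.3 FPKM in T-DCs and 3.23, 4.54 and 4.45 FPKM in T-mDCs. T-DC sample 1 was below all N-mDCs here. The log2 difference of T-DCs was 2.15 from N-mDCs (standard error 0.83, adjusted p = 0.105) and 2.49 from T-mDCs (adjusted p = 0.0808). Uros overlaps Bccip on the opposite strand over 740 bases, and Bccip was between 15.3 and 30.8 FPKM, so the same limit holds.

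Urod (chromosome 4, 116989965 to 116994413, minus strand), which removes carboxyl groups from the ring, was at 7.11, 14.1 and 8.59 FPKM in the N-mDCs, 11.7, 179 and 149.6 FPKM in T-DCs and 8.08, 6.65 and 5.73 FPKM in T-mDCs. All T-DCs were above all T-mDCs, with a log2 difference of 3.17 (limma, standard error 0.87, adjusted p = 0.0442). T-DC sample 1 lay within the N-mDCs, and the difference of T-DCs from N-mDCs was 2.73 (adjusted p = 0.0639).

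Cpox (chromosome 16, 58670292 to 58717636, plus strand), which returns the path to the mitochondrion by making protoporphyrinogen, was at 3.19, 3.01 and 3.74 FPKM in the N-mDCs, 7.39, 258 and 270.3 FPKM in T-DCs and 4.98, 3.66 and 3.65 FPKM in T-mDCs. All T-DCs were above all samples of both other groups, and T-DC sample 1 was at 2.23 times the N-mDC mean and 1.81 times the T-mDC mean. Cpox rose in T-DCs by a log2 difference of 4.28 over N-mDCs (limma, standard error 1.14, adjusted p = 0.0364) and of 4.05 over T-mDCs (adjusted p = 0.0477). Both samples of high red cell RNA among the T-DCs were at least 34.9 times above the highest other library, the widest such gap of the 8 enzymes.

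Ppox (chromosome 1, 171275990 to 171281186, minus strand), which oxidises protoporphyrinogen at the inner membrane, was at 11.1, 17.4 and 12.8 FPKM in the N-mDCs, 11.4, 103 and 87.0 FPKM in T-DCs and 9.53, 10.6 and 9.49 FPKM in T-mDCs. T-DCs lay above all T-mDCs and overlapped with N-mDCs. Its log2 differences, 1.74 from N-mDCs (limma, standard error 0.70, adjusted p = 0.114) and 2.16 from T-mDCs (adjusted p = 0.073), did not pass the threshold. B4galt3 shares 907 bases with Ppox on the opposite strand and was between 4.32 and 5.77 FPKM. Fech (chromosome 18, 64456550 to 64489066, minus strand), which puts iron into protoporphyrin, was at 10.01, 13.9 and 10.4 FPKM in the N-mDCs, 22.8, 531 and 369 FPKM in T-DCs and 15.6, 9.36 and 10.96 FPKM in T-mDCs. All T-DCs were above all other samples, and T-DC sample 1 was at 1.99 times the N-mDC mean. Fech rose in T-DCs by a log2 difference of 3.76 over N-mDCs (limma, standard error 0.98, adjusted p = 0.0344) and of 3.72 over T-mDCs (adjusted p = 0.0389).

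T-DCs against N-mDCs thus gave higher calls for 2 of 8 enzymes, Cpox and Fech, where 6.10% of all tested genes were called higher, 10.3% lower and 16.4% in either direction. All 8 log2 differences were above 0, with a median of 2.88 beside 0.05 over all tested genes. The groups did not overlap, with T-DCs higher, for 3 enzymes (Alas1, Cpox and Fech), beside 16.0% of all tested genes. Without T-DC sample 1 the count was 7, all but Alas1, and 39.5% of all tested genes were called in either direction. Without T-mDC sample 1 it was 1 (Fech), beside 14.6% of all tested genes. Without any one of the other 7 samples it was 0, beside 7.69% to 12.2% of all tested genes. It was also 0 with T-DC sample 1 as the only T-DC (5.85% of all tested genes called), with the red cell covariate (4.21%), and with T-mDC samples 2 and 3, whose reads were far closer than those of other pairs within a group, averaged into 1 sample (10.9%).

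T-DCs against T-mDCs gave higher calls for 4 of 8 enzymes, Alas2, Urod, Cpox and Fech, where 5.44% of all tested genes were called higher, 8.79% lower and 14.2% in either direction. The median log2 difference of the 8 enzymes was 3.11, beside 0.07 over all tested genes. The groups did not overlap, with T-DCs higher, for 5 enzymes (these 4 and Ppox), beside 16.8% of all tested genes. The count was 7 without T-DC sample 1, where 35.1% of all tested genes were called in either direction. It was 1 (Alas2) without N-mDC sample 1, N-mDC sample 2 or T-mDC sample 1, beside 11.2%, 13.2% and 14.3% of all tested genes. It was 0 without any one of the other 5 samples (4.24% to 10.6% of all tested genes called) and with T-mDC samples 2 and 3 averaged into 1 (4.24%). With the red cell covariate limma called 0 of the 12746 tested genes, with 1761 at an unadjusted p under 0.05, so the loss there was not particular to the enzymes. The same T-DC samples enter both comparisons.

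T-mDCs against N-mDCs gave 0 calls among the 8 enzymes (limma adjusted p from 0.131 for Alas1 to 0.997 for Alad), where 2.21% of all tested genes were called in either direction, 0.690% higher and 1.52% lower. At an unadjusted p under 0.05 there was 1 enzyme, Alas1, beside 2130 of the 12746 tested genes. With limma voom on the whole reads there were 0 calls, beside 1.36% of all tested genes. T-mDCs were above all N-mDCs for Alas1 and below all N-mDCs for Uros and Ppox, beside 19.3% and 15.7% of all tested genes with such a gap. The interval of the difference was narrow only for Alas1 (0.21 to 1.06), and for Alas2 it ran from -6.18 to 1.48. The fit held 1 variance per gene for all 3 groups. Each width therefore also reflects the spread among T-DC samples, which are outside this comparison. The SD of Cpox was 148 FPKM among T-DCs, against 0.378 (N-mDCs) and 0.765 (T-mDCs). For Uros the SDs in this order were 34.3, 0.440 and 0.735. With only the groups compared in the fit, 1 enzyme was called, Alas1, beside 6.67% of all tested genes. Without T-DC sample 1, or with T-DC sample 1 as the only T-DC, Alas1 was called higher in T-mDCs. The F-test over the 3 groups called 2 of 8 enzymes, Cpox (adjusted p = 0.0465) and Fech (adjusted p = 0.0409), where 18.0% of all tested genes were called. Its count was 8 without T-DC sample 1, with 42.2% of all tested genes called. It was 0 without any one of the other 8 samples, with 8.39% to 17% of all tested genes called.

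**Figure D3:**
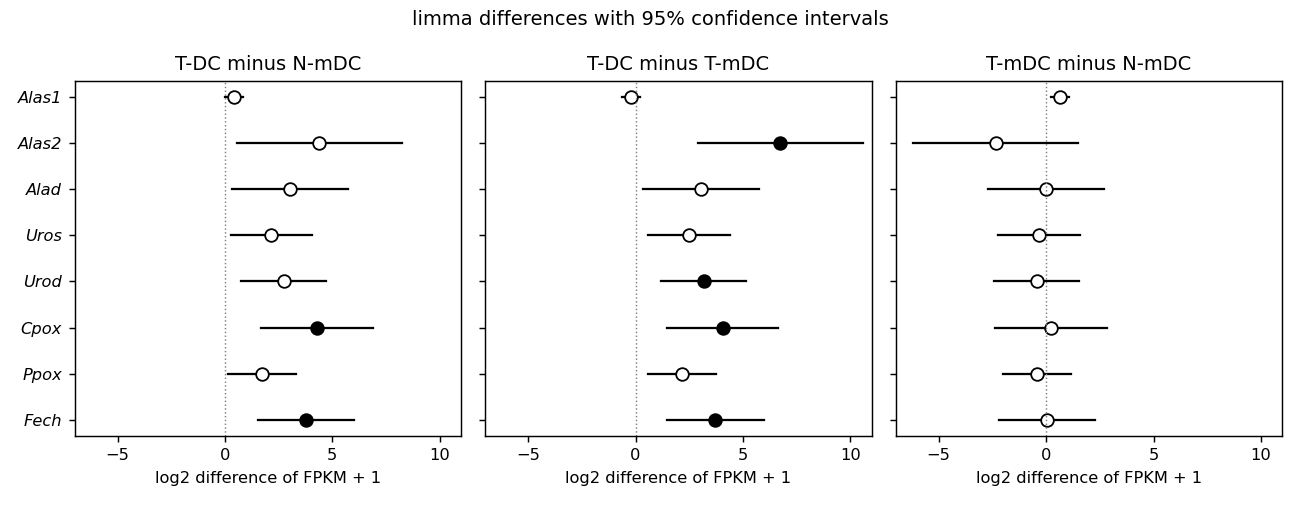
Differences of log2(FPKM + 1) between groups for each enzyme, with 95% confidence intervals from limma; filled points had an adjusted p under 0.05. Filled points are seen for Cpox and Fech against N-mDCs and for Alas2, Urod, Cpox and Fech against T-mDCs, and the interval of Alas1 is the shortest.

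N-mDC sample 2, which had more hemoglobin RNA than the other N-mDCs, did not hold the enzymes in the proportions of T-DC samples 2 and 3. Alas2, Alad, Urod and Ppox were higher in it than in any sample outside T-DC samples 2 and 3. Cpox, at 3.01 FPKM, was the lowest of all 9 samples there, Alas1 ranked 8 of 9, and Uros, at 5.59 FPKM, was within the range of the other N-mDCs. Fech, at 13.9 FPKM, ranked 5 of 9 and was below T-DC sample 1 and T-mDC sample 1. Alas2 followed the globin gene Hbb-bt through all 9 samples: per 1000 FPKM of Hbb-bt there were 93.6, 80.5 and 113 FPKM of Alas2 in N-mDCs, 149.3, 127 and 86.5 in T-DCs and 129, 85.3 and 146 in T-mDCs. For Cpox the same ratio was 280.3, 5.33 and 76.2 in N-mDCs, 108, 30.4 and 49.0 in T-DCs and 266, 2071 and 2621 in T-mDCs. In T-mDC samples 2 and 3 both ratios rested on 24 and 18 reads of Hbb-bt, and that of Alas2 on 7 and 9 reads of Alas2. Hbb-bt also had the highest Pearson's r with Alas2 of all tested genes over these samples, so their closeness is no separate result. The part of red cell RNA in the levels of the enzymes of N-mDC sample 2 was not tested.

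The order of the enzymes within a library also differed. In T-DC samples 2 and 3 it was the same, from Alas2 through Fech, Cpox, Alad, Urod and Ppox to Uros and Alas1. In T-DC sample 1 Fech was the most abundant and Uros the least, and Alas2 ranked 4 of 8. Ppox or Fech was the most abundant in T-mDCs and in N-mDC samples 1 and 3, and Alas2 was the least abundant in all T-mDCs and in N-mDC sample 1.

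The promoters of Alas2 and Cpox are shown because both genes were called in T-DCs, and because the enzymes differed in N-mDC sample 2. The letters AGATAA or TGATAA, those bound by GATA factors such as Gata1, were sought on both strands in the 250 bases before each RefSeq start (build GRCm38.p6), with CACACCC or CCCACCC, of the kind bound by Klf1, and TGCGCA, the core of the Nrf1 motif. RefSeq windows were given for 7 of the 8 enzymes, all but Fech, and numbered 10, since Alas1, Alad and Uros each had 2 starts. GATA letters were found in 3 of the 10 windows (Alas2, Cpox and the second start of Uros), beside 16.6% of all 32851 windows, CACCC letters in 3 (1 start of Alas1, Alas2 and Cpox), beside 21.3%, and TGCGCA in 1 (Cpox), beside 6.43%. Alas2 held the GATA letters at position -86 from its start and 3 partly overlapping stretches of CACCC letters, at positions -40, -35 and -30, within bases that GENCODE M21 counts as exon and that are not printed. Cpox held GATA letters at -86 and CACCC letters at -204, both on the minus strand, and TGCGCA at -12. The stretches outside annotated exons are given 5′ to 3′ on the strand of the gene, with matched letters in capitals, for Alas2 at chrX:150547167-150547374 (plus strand, 208 bases) and for Cpox at chr16:58669958-58670207 (plus strand, 250 bases).
Alas2: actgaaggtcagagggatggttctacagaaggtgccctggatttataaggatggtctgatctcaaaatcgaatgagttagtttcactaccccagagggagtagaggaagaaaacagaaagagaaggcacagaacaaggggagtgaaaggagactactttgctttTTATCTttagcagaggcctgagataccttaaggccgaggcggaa
Cpox: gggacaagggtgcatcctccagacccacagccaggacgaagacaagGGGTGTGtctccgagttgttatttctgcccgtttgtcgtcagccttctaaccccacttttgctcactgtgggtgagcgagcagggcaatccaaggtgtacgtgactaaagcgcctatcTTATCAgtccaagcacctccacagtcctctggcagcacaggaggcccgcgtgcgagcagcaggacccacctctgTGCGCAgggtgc
Such a match is a run of letters and no measurement of binding. The factors themselves followed T-DC samples 2 and 3. Gata1 was at 0.131, 1.83 and 0.226 FPKM in the N-mDCs, 1.24, 108 and 124 FPKM in T-DCs and 0.348, 0.0849 and 0.0669 FPKM in T-mDCs. Klf1 was at 3.65, 278 and 348 FPKM in T-DCs and at most 3.09 FPKM in the other groups, and Tal1, a partner of Gata1, was at 2.17, 208 and 168 FPKM in T-DCs and at most 1.62 FPKM elsewhere.

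The 5 tested genes whose log2(FPKM + 1) was most like that of Alas2 over the 9 samples included Hbb-bt, Rhd and Abcb9, with Pearson's r from 0.987 to 0.990, and from 0.954 to 0.987 over the 7 samples without T-DC samples 2 and 3. Hbb-bt encodes a globin chain, and Rhd encodes a protein of the red cell surface. Of the other enzymes, Urod was closest to Alas2 (r = 0.957 over 9 and 0.975 over 7 samples), followed by Ppox (0.946 and 0.860). Alad (0.912 and 0.539), Fech (0.919 and 0.554), Uros (0.895 and 0.289) and Cpox (0.885 and 0.108) followed Alas2 less closely once these 2 samples were left out. Alas1 had an r of -0.22 with Alas2. The genes most like Alas1 were Snd1, Wtap, Grap2, Ficd and Snx1, with r from 0.946 to 0.976, and 4 genes reached 0.95 for Alas1 where 87 did for Alas2. These values describe likeness over samples that share the same groups and libraries.

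Genes around the pathway, listed by function and with other mitochondrial genes among them, moved in part with it. Some, such as Flvcr1 and Iscu, were instead low in every T-DC sample. In these lists 15 calls were followed against each group. All kept their sign with T-DC sample 1 as the only T-DC, where 0 of 15 passed the test against N-mDCs and 1 of 15 (Abcc5) against T-mDCs. With 1 sample left out at a time, 2 calls passed each time, those of Flvcr1 and Mafg against T-mDCs. Of the 15 calls, 3 against N-mDCs (Fam210b, Nfs1 and Fdx1) and 6 against T-mDCs (Fam210b, Tspo2, Pgrmc1, Steap3, Nfs1 and Cybb) passed in at most 2 of these 9 fits. Of 14 genes for glycine and mitochondrial transport of precursors, 13 were tested. In T-DCs 4 were called higher than in N-mDCs and 4 higher than in T-mDCs, with 0 called lower. Over all tested genes, 6.10% and 5.44% were called higher. The median log2 difference of the list was 1.54 from N-mDCs and 1.31 from T-mDCs, beside 0.05 and 0.07 over all tested genes. Fam210b, which takes part in iron import for heme in erythroid cells, was at 3.59, 4.34 and 3.20 FPKM in the N-mDCs, 6.05, 59.4 and 62.8 FPKM in T-DCs and 4.36, 2.16 and 2.04 FPKM in T-mDCs. It rose by a log2 difference of 2.68 from N-mDCs (limma, standard error 0.75, adjusted p = 0.0425) and 3.01 from T-mDCs (adjusted p = 0.0312), and with T-DC sample 1 as the only T-DC these differences were 0.59 and 0.92. Slc25a38, the glycine carrier of the mitochondrion, was at 25.6, 78.3 and 74.4 FPKM in T-DCs, all above the 14.0 to 19.6 FPKM of N-mDCs, and rose by 1.68 (adjusted p = 0.0222). Tmem14c, which moves protoporphyrinogen, rose by 1.54 from N-mDCs (adjusted p = 0.0261) and 1.71 from T-mDCs (adjusted p = 0.0197).

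Tspo2, an erythroid relative of the translocator protein, was at 0.969, 70.4 and 46.8 FPKM in T-DCs and 0.296, 0 and 0.0337 FPKM in T-mDCs. It passed the filter only through T-DC samples 2 and 3 and N-mDC sample 2, at 1.96 FPKM. The log2 difference of Tspo2 from T-mDCs was 4.10 (limma adjusted p = 0.0496), and 0.84 with T-DC sample 1 as the only T-DC. Pgrmc1, a heme-binding partner of Fech, rose by 0.58 from T-mDCs (adjusted p = 0.0483). Slc25a37, the iron carrier of erythroid mitochondria, was named after its values were seen: it was at 11.4, 13.2 and 14.5 FPKM in the N-mDCs, 15.9, 565 and 353 FPKM in T-DCs and 9.98, 11.5 and 11.4 FPKM in T-mDCs, with a log2 difference of 3.42 from N-mDCs (adjusted p = 0.0630). Its general relative Slc25a28 was at 28.6, 21.9 and 24.0 FPKM in T-DCs and 17.2 to 33.3 FPKM in the other groups.

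In the list for iron uptake and storage, 12 of 14 genes were tested. Against N-mDCs 2 were called higher and against T-mDCs 1, beside 6.10% and 5.44% of all tested genes, and 0 were called lower. The medians were 0.40 and 0.48, beside 0.05 and 0.07 over all tested genes. Slc11a2, an importer of ferrous iron, rose by 1.44 from N-mDCs (limma adjusted p = 0.0273), Ncoa4, the receptor that sends ferritin to the lysosome, by 1.28 (adjusted p = 0.0273), and Steap3, an iron reductase, by 2.92 from T-mDCs (adjusted p = 0.0381). Tfrc, the transferrin receptor, was named after its values were seen. It was at 16.5, 16.7 and 21.1 FPKM in the N-mDCs, 20.7, 532 and 273 FPKM in T-DCs and 17.9, 18.1 and 18.0 FPKM in T-mDCs, with a difference of 2.95 from N-mDCs that did not pass the test (adjusted p = 0.0687).

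All 14 genes of iron-sulfur cluster assembly were tested. Nfs1, the cysteine desulfurase that supplies sulfur, rose from N-mDCs by 0.85 (limma adjusted p = 0.0303) and from T-mDCs by 0.80 (adjusted p = 0.0396). Iscu, the scaffold on which clusters are built, was at 34.9, 32.8 and 28.5 FPKM in T-DCs, all below the 48.5 to 76.0 FPKM of N-mDCs, and fell by 0.85 (adjusted p = 0.0238). It also fell by 1.02 from T-mDCs (adjusted p = 0.0127), and the ferredoxin Fdx1 fell by 0.54 from N-mDCs (adjusted p = 0.0496). The list thus held 1 higher and 2 lower calls against N-mDCs and 1 of each against T-mDCs, while 10 of its 14 genes were highest in T-DC samples 2 and 3.

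For heme export, uptake and breakdown, 12 of 16 genes were tested. Flvcr1, an exporter of heme, was at 36.3, 14.5 and 33.5 FPKM in the N-mDCs, 9.20, 8.21 and 5.88 FPKM in T-DCs and 25.7, 37.7 and 41.3 FPKM in T-mDCs. It fell in T-DCs by 1.65 from N-mDCs (limma adjusted p = 0.0173), the only call of the list there, and by 2.03 from T-mDCs (adjusted p = 0.00853), and all 3 T-DC samples were low. Lower calls made up 10.3% of all tested genes against N-mDCs and 8.79% against T-mDCs. Against T-mDCs 4 genes of the list were called higher, beside 5.44% of all tested genes. Blvrb, a reductase of biliverdin, rose by 3.50 (adjusted p = 0.0147), the heme-binding protein Hebp1 by 2.15 (adjusted p = 0.0197) and the transporter Abcc5 by 1.89 (adjusted p = 0.0186), and Slc48a1, a heme carrier of the lysosome named after its values were seen, by 1.57 (adjusted p = 0.0198). Hmox1, the enzyme that breaks heme down, was named after its values were seen. It was at 719, 1238 and 1022 FPKM in the N-mDCs, 719, 267 and 103 FPKM in T-DCs and 388, 61.5 and 63.9 FPKM in T-mDCs, and none of its differences passed the test, the largest being -3.06 between T-mDCs and N-mDCs (adjusted p = 0.112). Red pulp macrophage markers had a summed FPKM of 2121, 4165 and 2735 in N-mDCs, 3625, 1174 and 703 in T-DCs and 1707, 483 and 484 in T-mDCs, and their part in the levels of Hmox1 was not tested.

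Of 12 genes of the heme response and its regulators, 11 were tested. Mafg, a small Maf protein that pairs with Bach1, rose by 0.83 from N-mDCs (limma adjusted p = 0.0177) and 1.14 from T-mDCs (adjusted p = 0.00569). Nr1d1, a nuclear receptor that binds heme, fell by 1.65 from N-mDCs (adjusted p = 0.0216), and Bach2, a repressor that binds heme, fell by 0.91 (adjusted p = 0.0350). Nfe2l2, an activator of Hmox1, was at 46.2, 35.2 and 54.5 FPKM in the N-mDCs, 41.7, 45.7 and 32.6 FPKM in T-DCs and 24.4, 17.1 and 16.9 FPKM in T-mDCs. T-DCs overlapped with N-mDCs (-0.17, adjusted p = 0.643) and T-mDCs lay below both, with a fall of T-mDCs against N-mDCs (-1.18, adjusted p = 0.0441) and a difference of T-DCs from T-mDCs of 1.01 (adjusted p = 0.0251). The list had a median of -0.17 from N-mDCs and 0.36 from T-mDCs, beside 0.05 and 0.07 over all tested genes. It held 1 higher and 2 lower calls against N-mDCs, beside 6.10% and 10.3% of all tested genes. Against T-mDCs it held 2 higher calls, beside 5.44%. Among 10 genes of heme a and cytochrome assembly, with medians of 0.42 and 0.36, catalase (Cat) rose by 0.80 from N-mDCs (adjusted p = 0.0376). Cybb, the heme-bearing subunit of the phagocyte oxidase, rose by 1.53 from T-mDCs (adjusted p = 0.0442). Each was the only call of these 10 genes in its comparison, beside 6.10% and 5.44% of all tested genes called higher. Among 15 other mitochondrial genes, the medians were 0.48 and 0.29. In each T-DC comparison 1 of them was called higher, beside 6.10% (N-mDCs) and 5.44% (T-mDCs) of all tested genes. It was the DNA polymerase Polg, which rose by 0.81 from N-mDCs (limma adjusted p = 0.0122) and 0.73 from T-mDCs (adjusted p = 0.0198).

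**Figure D4:**
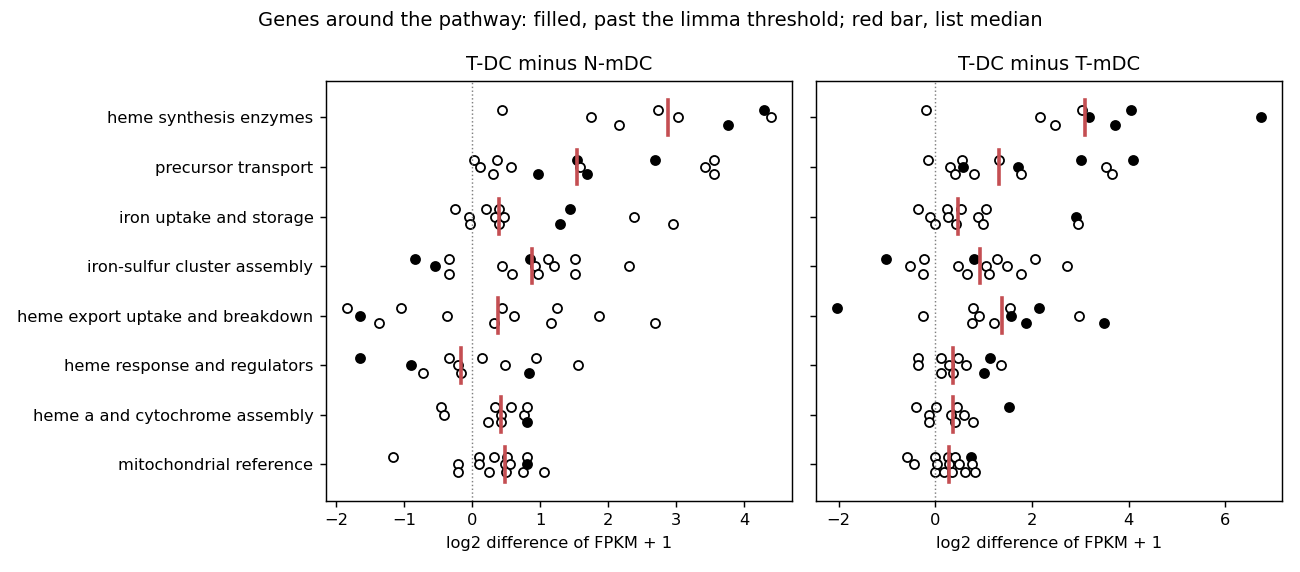
Differences of log2(FPKM + 1) of T-DCs from N-mDCs and from T-mDCs for the enzymes and for 7 lists of genes around the pathway, with 1 point per tested gene, filled where the limma adjusted p was under 0.05, and a red bar at the median. The medians run from -0.17 (heme response and regulators) to 2.88 (the enzymes) against N-mDCs and from 0.29 (other mitochondrial genes) to 3.11 (the enzymes) against T-mDCs.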

How the data were processed

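The authors deposited FPKM values for 54532 genes in 9 samples, made on genome build mm10 per the labels, with gene positions and the gene length. The aligner, counter, annotation and strand setting are not given in the sources used here. FPKM times gene length gave whole reads in each library (100% of values within 0.001 of a read). A single read per kilobase of gene stood for 0.0517 to 0.0659 FPKM. For 7 of the 8 enzymes, start and end were the same in GENCODE M21 (GRCm38).

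Values were tested as log2(FPKM + 1), which understates changes of low genes, in limma 3.58.1 (R 4.3.3; 1 linear model of all 3 groups, moderated with a variance trend). The test covered 12746 genes that reached 1 FPKM in 3 samples or more, all 8 enzymes among them. Adjustment followed Benjamini and Hochberg over these genes (the Benjamini-Hochberg method), and 0.05 was the threshold. The code was first tested on simulated data. The exact permutation tests were run with SciPy. T-mDC samples 2 and 3 differed by a chi-square per gene of 1.85 over genes with 40 to 399 reads in their sum, where counting noise gives about 1 and other pairs within a group gave 8.11 or more, and were kept as separate samples, as labelled. Whether they are independent libraries is not given in the sources used here.

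The enzymes, the lists of other genes and the rule for named genes were chosen with earlier results of these data known. The rule names the enzymes, up to 4 called genes per list and T-DC comparison with the largest difference, the 5 genes most like Alas2 and Alas1, and 10 marker genes and factors. Some of these genes are not reported here. Promoter letters came from the RefSeq table for GRCm38.p6. Alternatives were another pseudocount, other filters, 4 other scalings or counts (TPM, quantile, median-of-ratios, voom on reads), other fits, a replicate block, the mean of T-mDC samples 2 and 3, a red cell covariate and leaving out each sample; leaving out T-DC samples 2 and 3 together was added after seeing the data.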

Additional observations from a re-analysis of the deposited data

How the results depend on the processing

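The number of enzymes called was as reported, or within 1.5 times, for both T-DC comparisons and the F-test with a pseudocount of 0.1, a stricter filter, TPM, quantile normalization, median-of-ratios scaling, no variance trend and voom on whole reads. T-DCs against N-mDCs gave 0 calls without a filter (5.16% of the 28859 genes then tested) and with only the groups compared (8.39% of all tested genes). There were also 0 with T-mDC samples 2 and 3 averaged into 1 (10.9%) and with the red cell covariate (4.21%). The count was 8 with array weights, in which T-DC sample 2 had a weight of 46.6 and T-DC sample 1 one of 0.0872. With these weights 66.6% of all tested genes were called. T-DCs against T-mDCs gave 0 under the same 4 settings (4.43%, 8.13%, 4.24% and 0% in this order) and 7 with array weights (77.9% of all tested genes). The F-test gave 0 without a filter (5.86%), with T-mDC samples 2 and 3 averaged (8.44%) and with the covariate (5.49%). It gave 8 with array weights (84.4% of all tested genes). T-mDCs against N-mDCs gave 1 call, Alas1, with only the groups compared (6.67%) and with array weights (30.1%). With T-DC sample 1 as the only T-DC, assumed to vary like the other groups, the counts were 0, 0, 1 (Alas1) and 1 (Alas1) for the 4 results in the order T-DC against N-mDC, T-DC against T-mDC, T-mDC against N-mDC and F-test. Leaving out 1 sample at a time gave 0 to 7, 0 to 7, 0 to 1 and 0 to 8 calls. The shares of all tested genes called were then 7.69% to 39.5%, 4.24% to 35.1%, 0.18% to 8.02% and 8.39% to 42.2%. Causes were not tested beyond the construction of each alternative.

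Same-numbered samples did not deviate together (correlations from -0.47 to 0.27 over the 9 pairs), so the numbers were not taken to pair the samples. With the replicate number as a block, the counts were 0, 1 (Alas2), 0 and 0, beside 10.8%, 9.83%, 0.612% and 10.5% of all tested genes. For the ratio of Alas2 to Alas1 the block gave an exact sign permutation p of 0.25, 0.25 and 0.50, where 0.25 is the smallest possible. The differences of the ratio kept their direction in all alternatives and ran from 2.68 to 6.09 (T-DC against N-mDC), 5.66 to 9.08 (T-DC against T-mDC) and -4.05 to -1.80 (T-mDC against N-mDC) with 1 sample left out.

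With the red cell covariate the sign turned for Alas2 against N-mDCs (-0.24) and T-mDCs (-0.21), and against T-mDCs for Alad (-1.51), Uros (-0.29), Urod (-0.23), Ppox (-0.43), Tspo2 (-0.51) and Alas1 (0.057). With T-DC sample 1 as the only T-DC it turned for Alad (-0.36 against N-mDCs, -0.35 against T-mDCs), Uros (-0.25 against N-mDCs), Ppox (-0.23 against N-mDCs) and Alas1 (0.073 against T-mDCs). None of these values passed the test. TPM moved the median difference of all genes by -0.30 for T-DCs against T-mDCs and by 0.21 for T-mDCs against N-mDCs, and voom by -0.15 and 0.10; the T-DC differences of the 8 enzymes kept their sign under both, and under quantile and median-of-ratios scaling. The 7 and 9 reads of Alas2 in T-mDC samples 2 and 3 limit the size of its difference from T-DCs.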

Other observations

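T-DC samples 2 and 3 were alike in most enzymes and differed in a few. Alas2 was 2.26 times as high in T-DC sample 2 as in T-DC sample 3, and Fech was 1.44 times as high. Alas1, Urod and Ppox were at 1.30, 1.20 and 1.19 times, and Uros, Cpox and Alad at 0.985, 0.954 and 0.894 times. Among other red cell genes, Tfrc and Slc25a37 were at 1.95 and 1.60 times and Hbb-bt at 1.54 times, while Klf1, Gata1 and Car1, a carbonic anhydrase of red cells, were at 0.799, 0.871 and 0.517 times. These are ratios of single samples with no replicate check, and no gene was chosen here by a rule.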
